A study of Mus musculus with 6 samples.

Results

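Tubulin isotypes are the closely related proteins, each from its own gene, from which microtubules are built. Alpha and beta isotypes pair into the dimers that polymerise, and gamma-tubulin starts new microtubules. The 10 tubulin genes described here were chosen by name, from a list drawn up with the differences between the groups of this series in view: the beta isotypes Tubb3, Tubb2a, Tubb2b, Tubb4a, Tubb5 and Tubb6, the alpha isotypes Tuba1a, Tuba4a and Tuba8, and the gamma-tubulin Tubg1. Of these, 9 were among the 22180 genes that the array measured through a probe set with a single gene symbol. Tuba4a lay on a probe set that also carries the symbol of a second gene, and it was not analysed here. Since the contrast itself entered the choice, the values of the 9 genes are given as a description. No p-value is printed for them, and nothing is read from how many passed a threshold.

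The cells came from mouse gliomas, where they had been sorted on magnetic columns for CD105 (endoglin, the product of Eng), and they spent 12 h in medium conditioned by glioma cells before RNA was taken. In the Tie2-Cre group, 3 mice (numbers 1, 3 and 4) had the genotype Tie2-Cre,Pfn1fl/fl:Y129F, in which Cre is driven by the promoter of Tie2 (Tek), a receptor gene of endothelial and some blood cells. In the no Cre group, 3 mice (numbers 6, 7 and 10) had the genotype Pfn1fl/fl:Y129F. The floxed profilin-1 alleles and the term Y129F thus stood in the genotype labels of all 6. What Cre does to these alleles, the age of the mice and their strain were not given in the sources used here. Whether the Y129F protein was made in both groups was not given either. By its title, the study is about the phosphorylation of profilin-1 (Pfn1, which binds actin) and the genes that glioma endothelium expresses. Nothing in the labels says whether cells of several animals were pooled.

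Microtubules give a cell its shape, carry its cargo and pull its chromosomes apart. Isotypes differ mainly in their C-terminal tails, which protrude from the microtubule and take up modifications. Cells also adjust tubulin messages to the pool of free dimers: surplus tubulin leads to decay of the messages of alpha and beta isotypes while they are being translated, with TTC5 as the factor that recognises the nascent chain. In adult tissue Tubb3, Tubb2b, Tubb4a and Tuba1a are best known from the nervous system, whereas Tubb5 and Tubb6 are widely expressed.

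RNA was read on 1 Affymetrix Mouse Gene 2.0 ST array per mouse, and levels are log2 of the authors' normalized intensity. Median levels over genes lay between 7.08 and 7.14 on the 6 arrays. Probe sets differ in brightness, so that levels are compared between mice and never between genes. Pfn1 averaged 12.41 ± 0.0045 with Tie2-Cre and 12.37 ± 0.026 without Cre (SD, n = 3 each), with no call between the groups (limma adjusted p 0.776). The female-specific RNA Xist spanned 5.36 to 6.06 in the Tie2-Cre mice, against 11.16 to 11.44 in the no Cre mice, and 3 Y-linked genes went the other way, so that the effect of genotype and that of sex cannot be told apart in any value below. Genes with a mean level under 6.33 over the 6 arrays, the lowest 1 in 3 of all genes, are called dim here. Of 12 endothelial markers 8 were dim (Pecam1, Tek, Tie1, Kdr, Emcn, Cldn5, Erg and Esam), which goes against the label of endothelial cells, while Eng itself stood at 11.76 with Tie2-Cre and 12.05 without Cre. Levels near background cannot be told from absence on this array.

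Promoter bases of 4 isotypes are shown because Tubb3 and Tubb4a, and Tuba1a and Tuba1c (an alpha isotype outside the chosen genes), are the pairs whose values differed in opposite directions between the groups. For Tuba1a and Tuba1c these directions hold in the brighter of 2 probe sets, while the groups overlapped in the second. Each run is the 120 bases before the annotated start of the gene, on the gene's own strand, from RefSeq's GRCm38.p6: Tubb3 at chr8:123411433-123411552 (plus strand), Tubb4a at chr17:57087601-57087720 (minus), Tuba1a at chr15:98953502-98953621 (minus) and Tuba1c at chr15:99029771-99029890 (plus). The capitals mark the CCAAT box (CCAAT, here read on the other strand) and the GC box (GGGCGG) of Tubb3, the core of the HIF response element (ACGTG) of Tubb4a, and a GC box on the other strand of Tuba1a.
Tubb3: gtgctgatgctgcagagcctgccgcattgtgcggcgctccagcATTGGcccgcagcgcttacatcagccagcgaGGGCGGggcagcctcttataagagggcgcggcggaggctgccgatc
Tubb4a: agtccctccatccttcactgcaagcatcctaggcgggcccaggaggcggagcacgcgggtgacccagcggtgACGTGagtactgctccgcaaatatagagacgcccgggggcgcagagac
Tuba1a: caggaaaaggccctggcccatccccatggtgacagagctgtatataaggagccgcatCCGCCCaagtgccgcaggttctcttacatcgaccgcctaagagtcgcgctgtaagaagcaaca
Tuba1c: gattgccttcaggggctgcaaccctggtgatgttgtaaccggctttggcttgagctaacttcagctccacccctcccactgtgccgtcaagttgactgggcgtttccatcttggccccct

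The motifs were sought on both strands in the 250 bases before the start, and the table held 7 of the 10 chosen isotypes and 10 other tubulins. No entry was found for Tubb2b, Tubb6 and Tubg1. Of these 17 tubulins, 8 held a CCAAT box (34.5% of 27025 genes did), 8 a GC box (32.9% of genes), 5 the letters ACGTG (16.6%), 1 a TATA box (TATAAA, 13%) and 0 the CArG box, which binds SRF, a factor governed by actin (1.4%). The letters ACGTG stood in Tubb4a, Tubb5 and Tuba8 among the chosen isotypes, and Tubb5 and Tuba8 had like levels in both groups. These matches are letters only and say nothing of the factors.

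Beta isotypes differed between the groups in both directions. Tubb3 was 2.08-fold higher with Tie2-Cre, Tubb4a was 2.43-fold and Tubb6 1.39-fold lower, and the groups overlapped in Tubb5. Among the alpha isotypes Tuba1a was 1.34-fold higher, and Tuba1c fell in the brighter of its 2 probe sets. Of the 9 measured genes, 2 were higher past the threshold of limma (Benjamini-Hochberg adjusted p under 0.05 over all genes) and 2 lower, where 4.78% of all genes were higher and 7.17% lower, counts from which nothing is read since the contrast chose the genes. Over the other settings run, the counts were 1 to 4 higher and 1 to 2 lower. Tuba1a and Tubb6 lost their call in at least 1 of these settings, and Tubb2a and Tubb2b gained one in several. The 3 mice of each group did not overlap in 6 of the 9, against 31.0% of all genes. The median difference over the 9 was 0.04 on the log2 scale and the median absolute difference 0.29, beside -0.0042 and 0.11 over all genes. Nothing is read from the overlap count or these medians either, since genes chosen with the contrast in view can be expected to differ more. In sorted bulk cells, a change in the share of a cell type and a change in RNA per cell cannot be told apart.

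**Figure D1:**
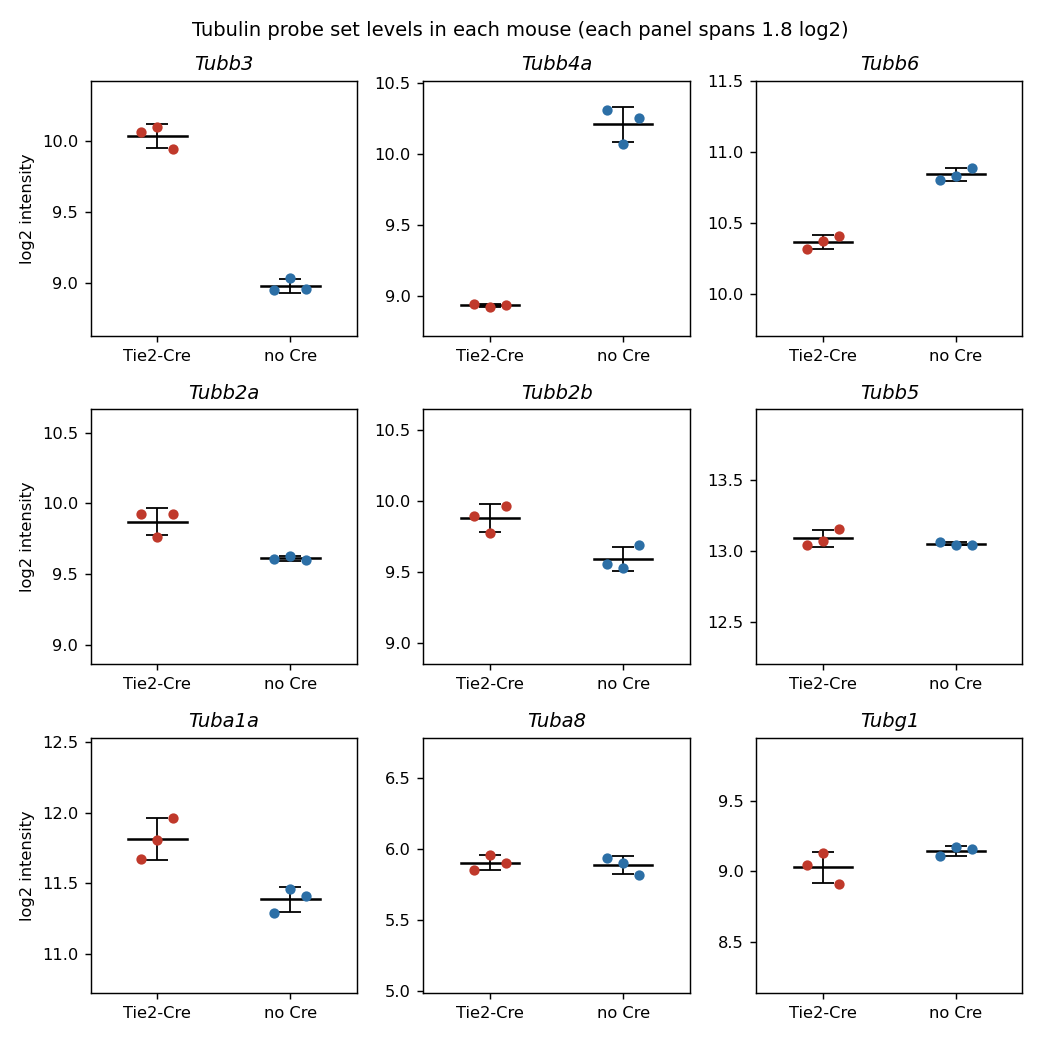
Log2 intensity (vertical axes, each panel 1.8 units high) of the 9 measured isotypes in each of the 3 Tie2-Cre mice (red) and the 3 no Cre mice (blue). Lines are group means and bars the SD; Tubb3 (means 10.04 and 8.98) and Tubb4a (means 8.93 and 10.21) part the groups most, in opposite directions.

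Tubb3 encodes class III beta-tubulin, widely used as a stain for neurons. Its level was 10.07, 10.10 and 9.94 in Tie2-Cre mice 1, 3 and 4, against 8.95, 9.04 and 8.95 in no Cre mice 6, 7 and 10. All 3 Tie2-Cre mice were high and the groups stood far apart. The means were 10.04 ± 0.084 with Tie2-Cre and 8.98 ± 0.050 without Cre (SD, n = 3 each), a difference of 1.06 on the log2 scale (SE 0.073) or 2.08-fold. With any single mouse left out, the difference lay between 1.03 and 1.10.

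Tubb4a, a beta isotype prominent in brain and in the oligodendrocytes that make myelin, had the opposite pattern. Its level was 8.94, 8.92 and 8.93 in Tie2-Cre mice 1, 3 and 4, against 10.31, 10.07 and 10.25 in no Cre mice 6, 7 and 10. The Tie2-Cre mice were nearly identical (SD 0.0082) and all below the no Cre mice, whose spread was wider (SD 0.12). The means of 8.93 with Tie2-Cre and 10.21 without Cre differed by -1.28 on the log2 scale (SE 0.079), which is 2.43-fold. Leaving out any 1 mouse gave differences from -1.35 to -1.23.

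Tubb6, a widely expressed beta isotype of class V, was lower as well. Its level was 10.31, 10.37 and 10.41 in the Tie2-Cre mice, against 10.80, 10.83 and 10.89 in the no Cre mice, with no overlap between the groups. The difference was -0.48 on the log2 scale (SE 0.066), or 1.39-fold.

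Tubb2a and Tubb2b, near-identical isotypes whose genes lie close together on chromosome 13, are both abundant in neurons. Tubb2a stood at 9.93, 9.76 and 9.92 in the Tie2-Cre mice, against 9.61, 9.63 and 9.60 in the no Cre mice. Tubb2b stood at 9.90, 9.78 and 9.97 in the Tie2-Cre mice, against 9.55, 9.53 and 9.69 in the no Cre mice. In both genes the 3 Tie2-Cre mice were above the 3 no Cre mice, with Tie2-Cre mouse 3 the lowest of its group. The differences of 0.26 (SE 0.072) for Tubb2a and 0.29 (SE 0.080) for Tubb2b on the log2 scale ranged from 0.23 to 0.31 for Tubb2a and from 0.25 to 0.34 for Tubb2b with any single mouse left out. Paralogs so alike can share probes, which makes the separate values of these 2 genes uncertain.

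Tubb5, the general beta isotype of dividing cells, did not part the groups. Its level was 13.04, 13.07 and 13.16 in the Tie2-Cre mice, against 13.07, 13.05 and 13.05 in the no Cre mice. These ranges overlap, and the difference was 0.04 on the log2 scale (SE 0.066), with a 95% interval from -0.11 to 0.19.

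Among the alpha isotypes, Tuba1a is the main form of young neurons. Its level was 11.67, 11.81 and 11.96 in Tie2-Cre mice 1, 3 and 4, against 11.29, 11.46 and 11.41 in no Cre mice 6, 7 and 10. The groups did not overlap, although the Tie2-Cre mice spread over 0.29 log2 units. Its difference was 0.43 on the log2 scale (SE 0.093, 1.34-fold), and 0.35 to 0.50 with any single mouse left out. With the mean of its 2 probe sets it was 0.25.

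Tuba8, an alpha isotype known from muscle and testis, was the 1 dim gene of the 9. It lay at 5.85, 5.95 and 5.90 in the Tie2-Cre mice, against 5.94, 5.90 and 5.81 in the no Cre mice. The groups overlap, at a level where background limits what a difference can show. Tubg1, the gamma-tubulin of the ring complex that starts microtubules, lay at 9.05, 9.13 and 8.91 in the Tie2-Cre mice, against 9.11, 9.17 and 9.16 in the no Cre mice. Its groups overlap too, with a difference of -0.12 on the log2 scale (SE 0.076).

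The remaining tubulins were those outside the chosen names, and since the chosen names were taken with these data in view, what was left over is not a free sample either. Of 10, 8 were measured: 0 passed the threshold as higher (0 also by limma's unadjusted p under 0.05), 1 as lower and 7 did not pass, with a median difference of -0.02. Tuba3a and Tuba3b share their probe sets and were not analysed here. The lower gene was Tuba1c, a broadly expressed alpha isotype whose gene lies in a cluster with Tuba1a and Tuba1b on chromosome 15. Its level was 8.47, 8.79 and 8.55 in the Tie2-Cre mice, against 9.44, 9.40 and 9.51 in the no Cre mice. All Tie2-Cre mice were below all no Cre mice, and Tuba1c fell by 0.85 on the log2 scale (SE 0.095, limma adjusted p 0.00112). Tuba1c passed without any single mouse (limma adjusted p 0.0013 to 0.00739), but not with the mean of its 2 probe sets (-0.42, limma adjusted p 0.0836), and its other probe set differed by 0.018. Whether Tuba1a, Tuba1b and Tuba1c share probes was not tested.

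Tuba1b, the general alpha isotype, lay at 7.92, 8.72 and 9.02 in Tie2-Cre mice 1, 3 and 4, against 8.70, 8.99 and 9.03 in no Cre mice 6, 7 and 10. The low mean with Tie2-Cre came from mouse 1: the difference of -0.36 (limma adjusted p 0.451) was -0.04 without it. The other 6 had like levels in both groups. Tubd1 (0.15, limma adjusted p 0.395) and Tube1 (-0.08, 0.638), the delta- and epsilon-tubulins of centrioles, did not pass, nor did Tubg2 (0.01, 0.975), the second gamma-tubulin gene and a close neighbour of Tubg1 on chromosome 11. The platelet isotype Tubb1 (0.01, 0.958), Tubal3 (0.01, 0.954) and the ubiquitous Tubb4b (-0.04, 0.777) were dim on this array.

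**Figure D2:**
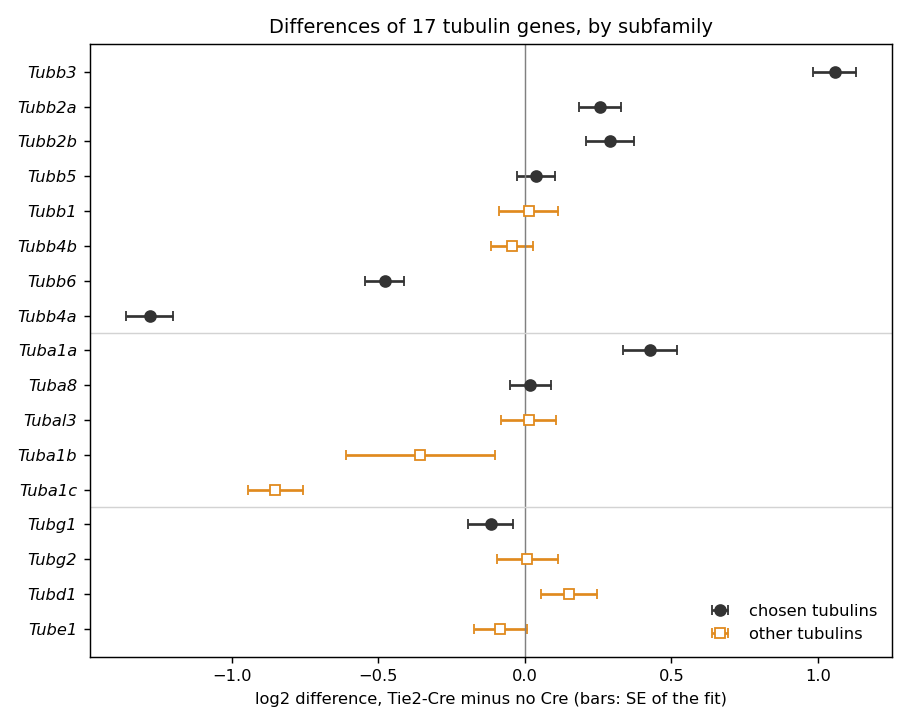
Log2 difference between the groups (horizontal axis, Tie2-Cre minus no Cre, bars are the SE of the fit) for all 17 measured tubulins, with beta isotypes on top, then alpha, then gamma, delta and epsilon. Filled circles are the 9 chosen isotypes and open squares the other 8; Tubb3 (1.06) lies farthest right, Tubb4a (-1.28) and Tuba1c (-0.85) farthest left.

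For 4 of the chosen isotypes and for Tuba1c, a second, dimmer probe set carried the same symbol. In these second sets the groups overlapped: the difference on the log2 scale was 0.08 for Tuba1a, 0.06 for Tubb2b, 0.07 for Tuba8 and -0.18 for Tubb5. For Tuba1c it was 0.018 (limma adjusted p 0.97 in a fit of all single-symbol probe sets), against -0.85 in the brighter set. The array numbers its probe sets by chromosome and strand, as seen from the genes around them. Around the second set of Tuba1a, 19 of the 20 nearest genes lie on the plus strand, while Tuba1a lies on the minus strand. Likewise 19 of 20 neighbours of the second set of Tuba1c and 18 of 20 of that of Tuba8 lie on the minus strand, opposite to these genes. The single set of Tuba1b also sits among plus-strand genes (19 of 20), although Tuba1b is on the minus strand. For the brighter sets of Tuba1a (19 of 20), Tuba1c (20 of 20), Tuba8 (19 of 20), and for Tubb3 (20 of 20) and Tubb4a (20 of 20), the neighbours lie on the gene's own strand. No strand was found for Tubb2b. Its second set sits among plus-strand genes (20 of 20) and its brighter set among minus-strand genes (19 of 20). Around the second set of Tubb5, a minus-strand gene, 5 neighbours on its chromosome lie on the plus strand and 3 on the minus strand. Whether any of these sets reads the opposite strand was not tested.

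Tie2-Cre mouse 1 stood low in several of these second sets. It was at 8.27 in the second set of Tuba1a, where the other 5 mice lay between 8.56 and 8.99, and at 9.81 in that of Tubb5, where they lay between 10.28 and 10.47. In the second set of Tuba1c it was at 7.28, the lowest of the 6. The brightest sets of Tubb3, Tubb4a and Tubb6 do not show this mouse apart from its group.

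**Figure D3:**
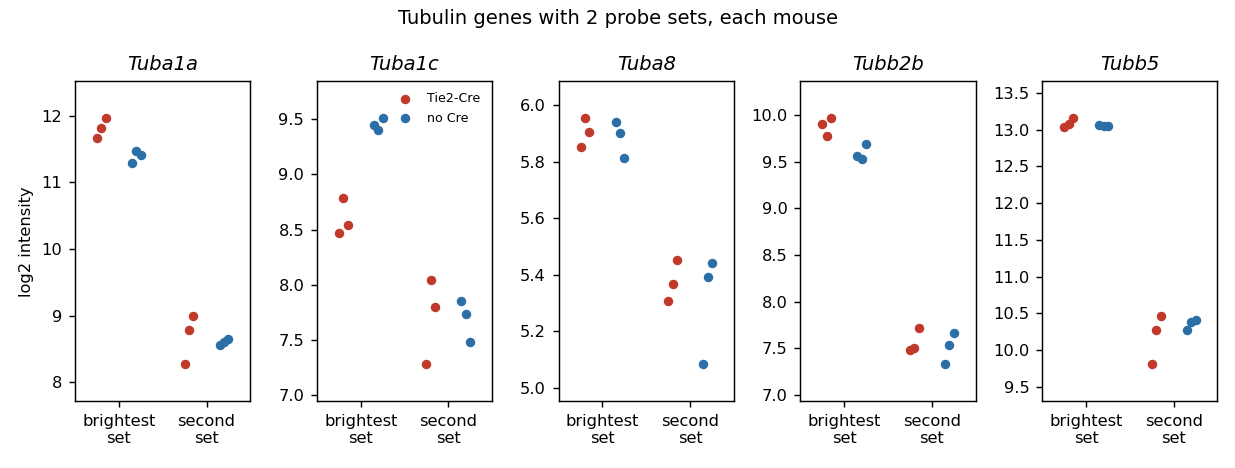
Log2 intensity (vertical axes, scaled per gene) of the brightest and the second probe set of 5 tubulin genes in each Tie2-Cre mouse (red) and no Cre mouse (blue). The groups part in the brightest sets of Tuba1a, Tuba1c and Tubb2b and overlap in all 5 second sets, where Tie2-Cre mouse 1 is low for Tuba1a (8.27) and Tubb5 (9.81).

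Since Tubb3, Tubb2a, Tubb2b and Tuba1a are known from neurons and Tubb4a from oligodendrocytes, markers of these and other cells were set beside them. Of 15 neuron markers, 5 of them dim, 0 passed the threshold of limma and 0 had an unadjusted p under 0.05, and their summed intensity was 1639 to 1771 with Tie2-Cre and 1567 to 1679 without Cre. The largest differences among them were those of Syp (0.22, limma adjusted p 0.273) and Syt1 (0.19, 0.356), both smaller than that of Tubb3. Of 8 oligodendrocyte markers, 1 was lower (12.5%, beside 7.17% of all genes), Myrf (-0.35, limma adjusted p 0.0183), and 0 higher. Their sums, 2021 to 2121 with Tie2-Cre and 2298 to 2451 without Cre, rest mostly on Myrf, at 10.24 and 10.59. The list median was -0.03, and the mean log2 levels of the list overlapped (7.09 to 7.24 with Tie2-Cre, 7.20 to 7.25 without Cre). Mbp, the main myelin protein gene, differed by -0.14 (limma adjusted p 0.314). None of these markers was listed at 0, as the array gives every probe set an intensity.

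Counts for the other marker lists stand beside shares over all genes of 4.78% higher and 7.17% lower. Nothing is read from a count of 1 gene. All 13 measured proliferation markers were lower with Tie2-Cre (median -0.72, summed intensity 4402 to 5045 with Tie2-Cre and 7400 to 8497 without Cre), among them Cdk1 (-1.05, limma adjusted p 0.000221) and Top2a (-0.98, 0.00127). Pericyte and smooth muscle markers were higher in 6 of 10 and lower in 0 (median 0.57, sums 30588 to 36558 with Tie2-Cre and 21601 to 22984 without Cre). Rgs5 (1.45, limma adjusted p 1.29e-05) and Cnn1 (1.29, 0.0625, no call) differed most. Cnn1 lay at 10.08, 10.14 and 11.63 in Tie2-Cre mice 1, 3 and 4, against 9.39, 9.46 and 9.13 in the no Cre mice. Fibroblast markers were higher in 4 of 10 and lower in 1 (median 0.08, sums 20959 to 23590 with Tie2-Cre and 19480 to 19740 without Cre). The largest differences there were those of Dpt (3.54, limma adjusted p 1.89e-06) and Pdgfra (1.65, 0.000253). Macrophage and microglia markers were lower in 3 of 11 and higher in 1 (median -0.05, sums 1458 to 1611 with Tie2-Cre and 1559 to 1793 without Cre). Cd68 (-0.99, limma adjusted p 0.000288) and Lyz2 (-0.75, 0.00234) had the largest differences of that list. Astrocyte, progenitor and glioma markers were higher in 1 of 11, which was Nes (0.59, limma adjusted p 0.00282), and lower in 0 (sums 1197 to 1250 with Tie2-Cre and 1048 to 1149 without Cre). Fabp7, with the next largest difference of that list, went the other way without a call (-0.31, limma adjusted p 0.1425), and the list median was 0.03. Endothelial markers were higher in 1 of 12, Flt1 (1.11, limma adjusted p 0.0272), and lower in 1, Eng (-0.30, 0.0217). Their sums, 4478 to 4783 with Tie2-Cre and 5099 to 5303 without Cre, rest mostly on Eng, at 11.76 and 12.05. The endothelial median was 0.01, and the mean log2 levels of the list overlapped (6.64 to 6.83 with Tie2-Cre, 6.67 to 6.70 without Cre). Flt1 lay at 8.24, 8.44 and 9.35 in Tie2-Cre mice 1, 3 and 4, against 7.55, 7.69 and 7.47 in the no Cre mice, so that mouse 4 stood above its group. The part of all these marker lists in the tubulin values was not tested.

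Beside the lists that follow stand the shares over all genes, 7.17% lower and 4.78% higher. Of 19 measured genes that start microtubules (the ring complex around gamma-tubulin, the augmin complex and their anchors), 4 were lower (21.1%) and 0 higher by limma (8 lower and 0 higher by an unadjusted p under 0.05), and the list median was -0.12. The lower ones were Haus6 (-0.65, SE 0.097, limma adjusted p 0.00435), Haus4 (-0.46, 0.024) and Haus1 (-0.45, 0.0287), subunits of augmin, which branches microtubules in the spindle, and Tpx2 (-0.61, 0.00643), a spindle assembly factor. Haus6 stood at 6.92, 7.19 and 6.94 in the Tie2-Cre mice, against 7.56, 7.68 and 7.77 in the no Cre mice. Haus2 (-0.20, limma adjusted p 0.107) did not pass. When Tie2-Cre mouse 1, Tie2-Cre mouse 4, no Cre mouse 6 or no Cre mouse 7 was dropped, 2 genes passed, and Haus1 and Haus4 did not (limma adjusted p 0.0666 to 0.1). The proliferation markers, lower in 13 of 13, belong to the same mice, and their part in the nucleation values was not tested.

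Nascent tubulin is folded by the ring-shaped chaperonin CCT, fed by prefoldin, and then assembled into dimers by the cofactors Tbca to Tbce. Of 22 measured genes of this machinery and of tubulin autoregulation, 18 did not pass, 4 were lower (18.2%) and 0 higher by limma (10 lower and 1 higher by an unadjusted p under 0.05), and the list median was -0.14. The lower genes were the CCT subunits Cct5 (-0.38, SE 0.069, limma adjusted p 0.0109), Cct2 (-0.34, 0.0132) and Tcp1 (-0.26, 0.0426), and the prefoldin subunit Pfdn1 (-0.26, 0.0467). Vbp1, another prefoldin subunit, stood at -0.29 (limma adjusted p 0.058). Ttc5, the autoregulation factor, named after its values were seen, differed by 0.10 (limma adjusted p 0.387). The count of lower genes was 2 when Tie2-Cre mouse 1, Tie2-Cre mouse 3 or no Cre mouse 10 was dropped, and 1 when no Cre mouse 6 or no Cre mouse 7 was, and Tcp1 and Pfdn1 did not pass when any of the 6 mice was left out (limma adjusted p 0.0568 to 0.133). Cct2 did not pass when no Cre mouse 6 or no Cre mouse 7 was dropped (limma adjusted p 0.0503 and 0.0537), and a second probe set of Tcp1 differed by -0.0020.

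Most enzymes that modify tubulin did not pass the threshold: of 27, 1 was higher, 1 lower (3.7% each, under the shares over all genes) and 25 did not pass, with a median of 0.0047. Atat1, the acetyltransferase of alpha-tubulin inside the microtubule, was higher (0.38, SE 0.074, limma adjusted p 0.0147), at 8.48, 8.49 and 8.66 in the Tie2-Cre mice, against 8.15, 8.19 and 8.16 in the no Cre mice. Ttll5, which adds glutamates to tubulin tails, was lower (-0.32, SE 0.063, limma adjusted p 0.0141). The call of Atat1 was lost without no Cre mouse 6 or 10, and that of Ttll5 without no Cre mouse 7 or 10 (limma adjusted p 0.0506 to 0.0586). The tyrosine ligase Ttl (0.24, limma adjusted p 0.103), the detyrosinating vasohibin Vash2 (0.23, 0.12) and Agtpbp1 (-0.15, 0.261), which trims glutamates, did not pass.

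Of 37 proteins that bind microtubules, 5 were higher (13.5%), 4 lower (10.8%) and 28 without a call, with a list median of 0.03. Dclk1, a doublecortin-like kinase that binds and stabilises microtubules, had the largest change: it was at 10.89, 10.94 and 10.57 in the Tie2-Cre mice, against 9.47, 9.60 and 9.32 in the no Cre mice, and rose by 1.34 on the log2 scale (SE 0.12, limma adjusted p 0.000394). Map7d3 (0.73, limma adjusted p 0.00113), a relative of the kinesin-recruiting protein Map7, and Dpysl3 (0.64, 0.0027), of the collapsin response mediator family, were also higher. Named after their values were seen, Arhgef2 (0.48, limma adjusted p 0.00989), which binds microtubules, and Camsap1 (0.33, 0.0134), which binds minus ends, completed the higher genes.

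The lower binding proteins included Fignl1 (-1.01, SE 0.13, limma adjusted p 0.00208), of the family of severing ATPases, and the katanin subunit Katna1 (-0.64, SE 0.076, limma adjusted p 0.00151). A second probe set of Katna1 differed by -0.16 (limma adjusted p 0.284). Fignl1, which also acts in DNA repair, was at 6.78, 7.21 and 7.12 in the Tie2-Cre mice, against 8.06, 8.20 and 7.89 in the no Cre mice. Map7 (-0.43, limma adjusted p 0.0342) and Map7d2 (-0.35, 0.0258), both named after their values were seen, were the other lower genes. Map7d2 was dim, with means of 5.73 with Tie2-Cre and 6.08 without Cre, and its difference lies in the range where background limits what can be read. The calls of Map7 and Map7d2 were lost whichever mouse was dropped, except no Cre mouse 6 (limma adjusted p 0.0542 to 0.105), and that of Camsap1 without no Cre mouse 6 or 10 (0.0561 and 0.0511). The neuronal binding protein Map2, also named after its values were seen, lay at 7.55, 7.58 and 9.52 in Tie2-Cre mice 1, 3 and 4, against 7.50, 7.33 and 7.34 in no Cre mice 6, 7 and 10. Only Tie2-Cre mouse 4, whose Tubb3 was the lowest of its group, was high, and the difference of 0.82 had no call (limma adjusted p 0.335).

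**Figure D4:**
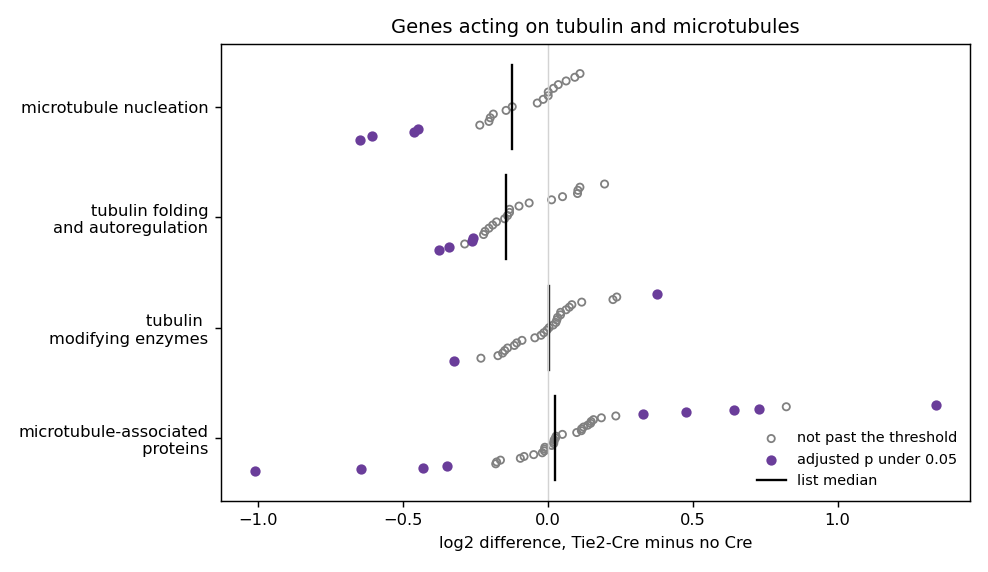
Log2 difference between the groups (horizontal axis, Tie2-Cre minus no Cre) of every measured gene in 4 lists that act on tubulin or microtubules; filled points passed the threshold and black bars are list medians. Called genes of the nucleation and folding lists all lie left of 0, while the binding proteins reach from -1.01 (Fignl1) to 1.34 (Dclk1).

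Across the 6 arrays, the genes most like Tubb3 by Pearson's r were Gpm6b (0.999), a proteolipid-family membrane protein, Kremen1 (0.998), a Dickkopf receptor, and Plin4 (0.998), a lipid droplet protein. Those most like Tubb4a were Rbm45 (0.998), an RNA-binding protein, Phf5a (0.998), a splicing factor subunit, and E2f8 (0.998), a transcriptional repressor of cell cycle genes. These values describe 6 points in 2 separate groups. Gpm6b, Kremen1 and Plin4 all shared the order of the Tubb3 values in the Tie2-Cre group, with mouse 4 the lowest (11.01, 9.78 and 8.30). Nothing is read from that order, since the genes were picked by r over these same arrays.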

How the data were processed

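RNA of 6 mice was measured on 1 Affymetrix Mouse Gene 2.0 ST array each, per the labels. The authors deposited RMA values (background-corrected, quantile-normalized and summarised per probe set) from Expression Console, per the labels. These deposited intensities were linear, from 5.13 to 17822, and were turned into log2 here without more scaling. A program version and a genome build were not given in the sources used here.

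Of 41345 probe sets, 23521 had exactly 1 symbol in the annotation, 1814 several, and 16010 were not listed. The probe set with the highest mean over all arrays stood for a gene, which left 22180 genes and set 1341 aside. Precision is limited by 3 arrays a group, with a median SD of 0.10 (Tie2-Cre) and 0.089 (no Cre) log2 units.

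The comparison used lmFit and eBayes of limma (version 3.58.1, under R 4.3.3), two-sided and over all genes, with a Benjamini-Hochberg adjusted p under 0.05 as the threshold. The steps were tested on simulated data. The groups share no mouse number, and nothing was paired. The members and the lists were chosen with earlier results of these data known. All members and other tubulins are named, and of each further list the 5 genes with the smallest p (2 with the largest difference for markers); any gene outside this rule is marked in the text. For likeness, the 3 genes with the highest r to the members of largest rise and fall were taken. Promoter sequences are from RefSeq (GRCm38.p6). Alternatives were other filters, normalizations, thresholds and weights, the mean or the other probe set of a gene, and each mouse left out. The value of the other probe set was added for genes outside the members after seeing the data.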

Additional observations from a re-analysis of the deposited data

How the results depend on the processing

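The direction of Tubb3, Tubb4a, Tubb6, Tubb2a, Tubb2b, Tuba1a and Tubg1 was kept under every normalization, probe set rule and left-out mouse run for them; Tubb5 turned to -0.07 with the mean of its probe sets, and Tuba8 to -0.0072 without Tie2-Cre mouse 3 and to -0.02 when no Cre mouse 10 was dropped. Tuba1c was -0.42 with the mean of its probe sets (limma adjusted p 0.0836) and 0.018 in its other probe set, a change of sign, so that the other tubulins held 0 lower genes with the mean. With probe sets of no or several symbols added, which adds tests, 609 genes were higher and 899 lower, and 2 were lower in each of the nucleation, folding and binding protein lists. An unadjusted p with 1.5-fold gave 424 higher and 551 lower genes, 2 lower in nucleation, 0 lower in folding, 0 higher and 0 lower among modifying enzymes, and 3 higher and 2 lower among binding proteins. The folding list held 7 lower genes with dim genes left out, 2 with centred arrays, and 10 lower and 1 higher under eBayes with trend and robust. With each mouse left out, counts ranged from 634 to 903 (higher, all genes), 910 to 1253 (lower, all genes), 2 to 4 (lower, nucleation), 1 to 3 (lower, folding), 0 to 1 (higher, modifying), 0 to 2 (lower, modifying) and 2 to 4 (lower, binding). Fewer samples were fitted in these; for the other settings the cause was not tested. No paired analysis was possible because the groups share no mouse numbers. No detection call came with the array values, so that dim isotypes such as Tuba8 are limited by background.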
